A study of Mus musculus with 6 samples.

Results

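The genes described here are 37 genes that copy DNA or prepare a cell to copy it, given as a list of gene names. They fall into 5 roles: 10 genes of origin licensing, 14 of the replication fork, 5 of nucleotide supply, 4 that drive entry into S phase and 4 of chromatin assembly or histone mRNA handling. A probe set was named for 36 of the 37, out of 18193 genes in all, and Chaf1a was not analysed here. The label fits what these genes are known to do in every dividing cell, and all 36 were expressed: 35 lay above the floor used here, 63.7 signal units, on all 6 arrays. The exception was Tyms, whose signal on the ZEB1 array was under it. The floor is the median of all deposited values without control probe sets, and a value under it was raised to it before a ratio was taken.

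The cells were melan-a, an immortal mouse melanocyte line that grew out of C57BL/6 embryonic skin. By the study's design text, all 6 cultures carried delta-BRAF-ER, an activated BRAF kinase fused so that tamoxifen switches it on. Each of the 6 groups had 1 array. In BRAF-off the kinase was left inactive, in BRAF-on it was switched on, and in the other 4 groups it was switched on in cells that also received ZEB2, SNAIL2, TWIST1 or ZEB1, embryonic transcription factors of the epithelial to mesenchymal transition. The study asked how these factors change the genes that respond to BRAF. This design gives 5 comparisons. The first sets BRAF-on over BRAF-off, and the other 4 set a factor's array over BRAF-on and so share the BRAF-on array. No group had tamoxifen without the construct, so an effect of the drug and one of BRAF cannot be told apart, and the time after activation is unknown here. A single array per group gives no measure of how cultures vary. No test was therefore run, and every ratio below compares 2 arrays by size, with 2-fold as the size that counts.

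Before S phase, the origin recognition complex, Cdc6 and Cdt1 load the ring of Mcm2 to Mcm7 onto DNA, a step called licensing. Cdc45 and the GINS complex then turn the ring into a working helicase, and polymerases, the sliding clamp Pcna with its loader, and ligase copy both strands behind it. Most of these genes are transcribed in bursts before and during S phase under E2F factors, which RB family proteins hold in check until cyclin-dependent kinases release them. In melanocytes that carry an activated BRAF, division often slows or stops after an initial phase of growth, and moles are the textbook example.

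The deposited signals were already scaled to a common level. Between 10611 genes (BRAF-off) and 11269 genes (ZEB1) reached the floor. Poly-A control transcripts, spiked into the RNA at the start, read 2.55-fold higher on the SNAIL2 array than on the BRAF-on array, on 24 of 24 probe sets, and their part in the SNAIL2 values below was not tested. The ratio of 3′ to 5′ probe sets, a sign of RNA quality, ran from 0.79 to 0.84 for Gapdh and from 1.36 to 1.54 for Actb. The probe sets for the introduced factors did not mark their arrays: Zeb2 read 806 in BRAF-on and 1132 on the ZEB2 array, Snai2 4175 and 3142 on the SNAIL2 array, Twist1 338 and 278 on the TWIST1 array, and Zeb1 134 and 109 on the ZEB1 array. These probe sets read the 3′ part of mouse transcripts, and the sources used here do not say whether an introduced copy carries that part, so the group names rest on the labels. Of 12 melanocyte markers, 12 lay above the floor on every array except that of TWIST1, where 2 did, Mitf and Sox10.

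The promoters of these genes show what they share beyond function. RefSeq windows of assembly GRCm38.p6, from 250 bases before to 50 bases after a start site, were found by symbol for 31 of the 36 genes, all but Mcm4, Gins1, Gins2, Pole and Ccne2. The letters searched for E2F were TTTCCCGC, TTTCGCGC, TTTGCCGC and TTTGGCGC on both strands, and matches may overlap each other. The 250 bases before the start site are shown for 5 genes, 5′ to 3′ on the strand of the gene, with E2F matches in capitals. Mcm6 holds the most matches of any member, Cdc6, Pola1 and Uhrf1 are members with large differences on the ZEB1 array, and Mcm2 is a member with a large difference there whose window holds none of the letters. The windows lie at chr1:128359706-128359955 on the minus strand for Mcm6, chr11:98907901-98908150 on the plus strand for Cdc6, chrX:93632156-93632405 on the minus strand for Pola1, chr17:56304063-56304312 on the plus strand for Uhrf1 and chr6:88898781-88899030 on the minus strand for Mcm2.
Mcm6: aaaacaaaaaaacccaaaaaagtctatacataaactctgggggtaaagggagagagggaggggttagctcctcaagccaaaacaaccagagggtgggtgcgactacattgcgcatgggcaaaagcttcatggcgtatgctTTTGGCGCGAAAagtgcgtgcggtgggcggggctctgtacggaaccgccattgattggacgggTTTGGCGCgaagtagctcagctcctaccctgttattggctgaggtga
Cdc6: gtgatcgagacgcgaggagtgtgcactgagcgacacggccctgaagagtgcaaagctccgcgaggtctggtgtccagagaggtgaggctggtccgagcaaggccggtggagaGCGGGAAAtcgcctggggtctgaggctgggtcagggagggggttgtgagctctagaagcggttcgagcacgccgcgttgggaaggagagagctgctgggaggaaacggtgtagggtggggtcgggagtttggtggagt
Pola1: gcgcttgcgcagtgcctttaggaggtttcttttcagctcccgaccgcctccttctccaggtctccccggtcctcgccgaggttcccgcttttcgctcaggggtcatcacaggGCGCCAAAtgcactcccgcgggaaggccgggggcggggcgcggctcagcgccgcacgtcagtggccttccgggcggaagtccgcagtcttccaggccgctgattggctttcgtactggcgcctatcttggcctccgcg
Uhrf1: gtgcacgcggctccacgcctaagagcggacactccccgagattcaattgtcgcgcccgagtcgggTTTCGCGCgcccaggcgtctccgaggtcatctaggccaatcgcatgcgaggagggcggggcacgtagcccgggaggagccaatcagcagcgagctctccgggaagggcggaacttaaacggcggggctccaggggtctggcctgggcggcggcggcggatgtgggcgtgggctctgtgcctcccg
Mcm2: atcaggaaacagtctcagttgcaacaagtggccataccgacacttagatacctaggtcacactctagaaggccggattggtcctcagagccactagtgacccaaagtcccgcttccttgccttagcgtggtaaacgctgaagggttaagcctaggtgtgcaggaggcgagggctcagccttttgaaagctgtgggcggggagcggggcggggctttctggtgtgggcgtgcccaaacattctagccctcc
The match in Cdc6 begins 138 bases before the start site, as does that in Pola1, and that in Uhrf1 begins 185 bases before it. Mcm6 holds 3 matches, at 110, 106 and 47 bases before the start, the first 2 of which overlap.

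E2F letters stood in the windows of 12 of the 31 genes (38.7%), against 2.61% of 27025 mouse genes with a window and 4.75% of the 9756 whose signal reached the floor. They were in 6 of the licensing genes besides Mcm6 (Orc1, Cdc6, Cdt1, Mcm3, Mcm5 and Mcm7) and in Pola1, Rfc3, Lig1, E2f2 and Uhrf1. Genes of mitosis, the nearest relatives in the cell cycle, held them in 1 of 29 windows (3.45%). The reverse held for TTTGAA, the letters of the cell cycle homology region (CHR) of late cell cycle promoters, which were in 4 of 31 replication windows (12.9%), 22 of 29 mitosis windows (75.9%) and 14.2% of measured genes. CCAAT, the letters of NF-Y, was in 19 of 31 replication windows (61.3%), 75.9% of mitosis windows and 43.0% of measured genes. CACCTG, an E-box to which ZEB and SNAIL factors are known to bind, was in 4 windows (12.9%), those of Orc6, Prim1, Tyms and E2f2, against 20.9% of measured genes. The wider E-box letters CANNTG, which include CACCTG, were in 61.3% of replication windows and 67.4% of those of measured genes. Members had a median of 59.3% G and C in the window and measured genes 60.9%. A match to letters is a description of the window and does not show that a factor is bound there.

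**Figure D1:**
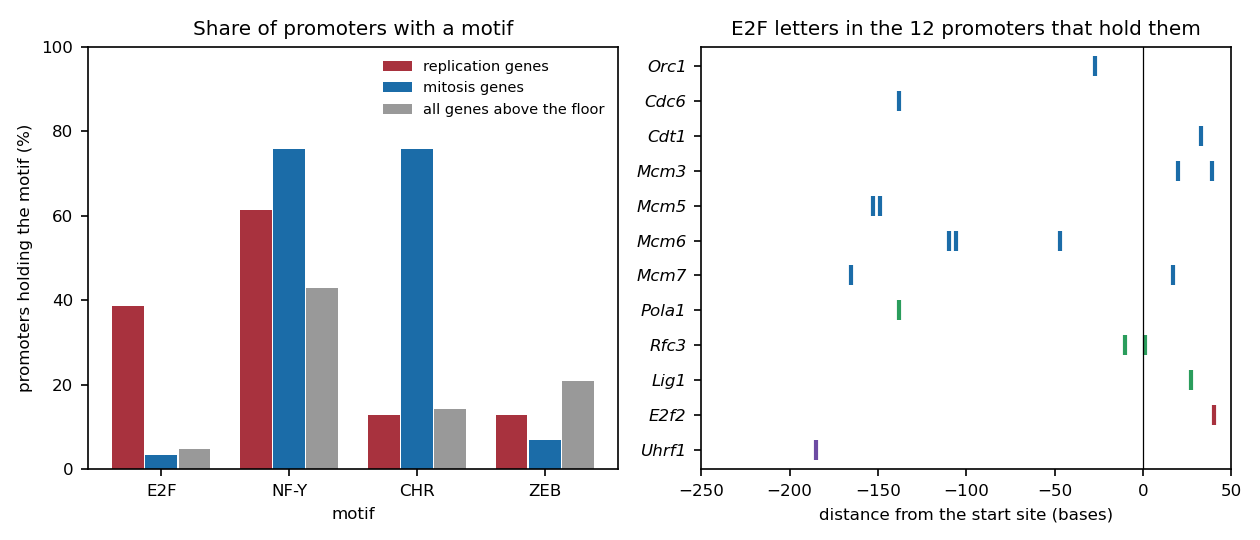
Left, share of promoter windows (percent) that hold the letters of 4 motifs, for the 31 replication genes and 29 mitosis genes with a window and for all 9756 genes above the floor. Right, position of each E2F match in bases from the start site (vertical line) in the 12 replication genes that hold one, coloured by role as in the plot of member levels; the E2F letters are in 38.7% of replication windows and the CHR letters in 75.9% of mitosis windows.

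Across the 6 arrays, the replication genes were at their lowest with ZEB1. Of the 35 genes above the floor everywhere, 31 had their lowest signal on the ZEB1 array and the other 4 their second lowest there; over all 9937 genes above the floor on every array, ZEB1 was lowest for 22.3%. The TWIST1 array was second lowest for 24 of the 35. The SNAIL2 array was the highest for 18 of the 35 and among the 2 lowest for 10, and over all genes it was the highest for 34.6%. BRAF-off was the highest for 11 and BRAF-on for 6, against 7.95% and 7.34% of all genes. ZEB2 was at neither end for any, and over all genes it was the lowest for 7.88% and the highest for 5.63%. No share over all genes was counted for second lowest places. Taking each gene as a percent of its BRAF-off signal, the median over the 36 genes was 94.5% in BRAF-on, 93.0% with ZEB2, 103% with SNAIL2, 74.4% with TWIST1 and 41.4% with ZEB1.

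**Figure D2:**
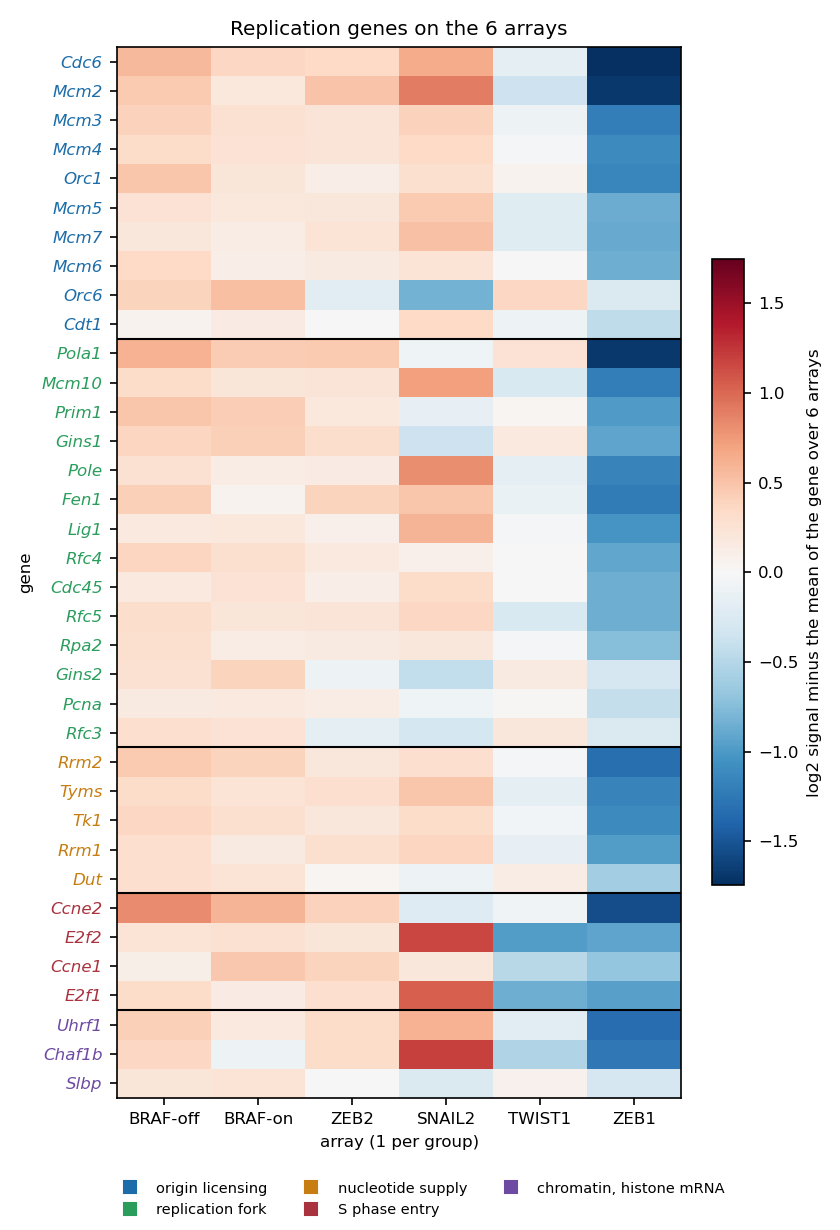
Each row is 1 of the 36 replication genes and each column 1 of the 6 arrays; colour is the log2 signal minus that gene's mean over the 6 arrays, with values under the floor raised to it. The ZEB1 column is the lowest for 31 of the 35 genes above the floor on every array, and the SNAIL2 column holds both the highest values of 18 genes and low values of Orc6, Gins1 and Gins2.

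With ZEB1, all 36 genes were below their BRAF-on signal and 27 of them (75%) were at least 2-fold lower, while none was 2-fold higher. Among all 11614 genes compared there, 3.93% were at least 2-fold lower and 4.49% at least 2-fold higher, 43.3% were below 0 and the median log2 ratio was 0.07. The median log2 ratio of the 36 was -1.18, between -2.14 for Ccne2 and -0.50 for Rfc3. The 9 genes short of 2-fold were Mcm6, Cdt1, Orc6, Gins2, Pcna, Rfc3, Rpa2, Dut and Slbp. In RNA from a whole culture, fewer cells in S phase and less of each mRNA per cell cannot be told apart.

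With TWIST1, all 36 genes were again below BRAF-on, but by less. The median log2 ratio was -0.30, and 2 genes, E2f1 and E2f2, were at least 2-fold lower, against 2.02% of all 11334 genes compared; another E2f2 probe set gave -0.75. No member was 2-fold higher, against 2.03% of all genes, and the median over all genes was 0.00. With SNAIL2 the members went both ways: 23 were above BRAF-on and 13 below, with a median log2 ratio of 0.11 against 0.06 over all 11416 genes. Chaf1b was the only member at least 2-fold higher, against 5.61% of all genes, and Orc6 the only one at least 2-fold lower, against 6.42%. When each array was centred on the median of its genes above the floor, 4.18% of all genes were higher and 8.18% lower with SNAIL2, 18 of the 36 members were below 0 and their median was -0.0062.

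With ZEB2, 0 members passed 2-fold in either direction, against 1.76% of all 11322 genes higher and 0.583% lower. The median log2 ratio was -0.04, 21 of 36 genes were below 0 (29 with the arrays centred), and 35 lay within 1.5-fold of BRAF-on. BRAF activation itself also left 0 members past 2-fold, against 1.04% of all 11200 genes higher and 0.384% lower, and all 36 lay within 1.5-fold. After BRAF activation 26 of 36 members were below 0 with a median of -0.08, but with the arrays centred 14 were below 0 and the median was 0.036, since centring moved the median of all genes from -0.00 to 0.11. Members lay 0.08 below the median of all genes under both scalings. Centring could hardly change that distance, since it shifts the members and all genes by the same amount. Centring gave 1.38% of all genes higher and 0.195% lower for BRAF activation.

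**Figure D3:**
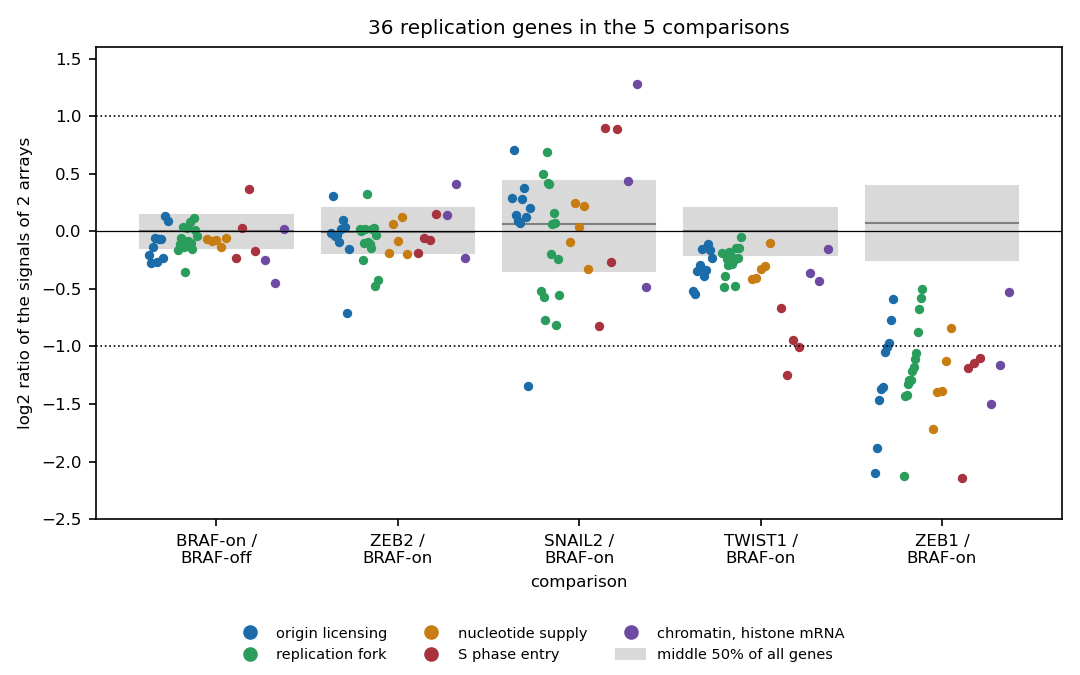
Each point is the log2 ratio of the signals of 2 arrays for 1 of the 36 replication genes, in the 5 comparisons and coloured by role; the grey box holds the middle 50% of all genes compared and the grey line their median, and dotted lines mark 2-fold. All 36 points lie below 0 with TWIST1 and with ZEB1, and 27 lie past the 2-fold line with ZEB1.

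Origin licensing is carried here by Orc1 and Orc6, subunits of the origin recognition complex, the loaders Cdc6 and Cdt1, and the helicase ring Mcm2 to Mcm7. With ZEB1, 7 of these 10 were at least 2-fold lower and the median log2 ratio was -1.20. The Cdc6 signal was 1423 in BRAF-off, 1231 in BRAF-on, 1219 with ZEB2, 1504 with SNAIL2, 859 with TWIST1 and 287 with ZEB1. The ZEB1 value lay apart from the other 5 arrays, which spanned 859 to 1504, and the log2 ratio to BRAF-on was -2.10, 4.29-fold lower. Mcm2 read 4972 in BRAF-off, 4117 in BRAF-on, 5086 with ZEB2, 6733 with SNAIL2, 2819 with TWIST1 and 1120.2 with ZEB1. Its ZEB1 and TWIST1 arrays were the lowest and its SNAIL2 array the highest, with log2 ratios to BRAF-on of -1.88, -0.55 and 0.71. The other ring subunits had a narrower range. Mcm3 read 7124 in BRAF-off, 6477 in BRAF-on, 6303 with ZEB2, 7156 with SNAIL2, 5086 with TWIST1 and 2341 with ZEB1, and Mcm4 read 8245 in BRAF-off, 7897 in BRAF-on, 7742 with ZEB2, 8407 with SNAIL2, 6458 with TWIST1 and 3062 with ZEB1. Mcm5 stood at 9136 in BRAF-off, 8707 in BRAF-on, 8812 with ZEB2, 10568 with SNAIL2, 6661 with TWIST1 and 4211 with ZEB1. Mcm6, with the smallest ZEB1 ratio of the ring at -0.97, read 9666 in BRAF-off, 8242 in BRAF-on, 8459 with ZEB2, 8975 with SNAIL2, 7642 with TWIST1 and 4206 with ZEB1, and Mcm7 read 8878 in BRAF-off, 8456 in BRAF-on, 9072 with ZEB2, 10985 with SNAIL2, 6681 with TWIST1 and 4204 with ZEB1. All 6 subunits had their lowest signal with ZEB1, and 5 of the 6, all but Mcm6, had their highest with SNAIL2. Their log2 ratios with SNAIL2 ran from 0.09 for Mcm4 to 0.71 for Mcm2 and were above 0 for all 6, though Mcm4 was at -0.02 with the arrays centred and the 4 other probe sets of Mcm3 ran from -0.33 to 0.58.

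Orc1, the subunit whose level follows the cell cycle in many cells, read 417 in BRAF-off, 346 in BRAF-on, 325 with ZEB2, 363 with SNAIL2, 311 with TWIST1 and 136 with ZEB1. Its log2 ratio was -1.35 with ZEB1 and between -0.15 and 0.07 with the other 3 factors. Cdt1 differed less than Cdc6 did: it read 6420.4 in BRAF-off, 6819.6 in BRAF-on, 6146 with ZEB2, 7847 with SNAIL2, 5806 with TWIST1 and 4526 with ZEB1, a log2 ratio of -0.59 with ZEB1. The Cdt1 protein is known to be controlled by destruction in S phase. Orc6 had another pattern from the rest of its class. Its signals were 2156 in BRAF-off, 2368 in BRAF-on, 1445 with ZEB2, 935 with SNAIL2, 2115 with TWIST1 and 1389.6 with ZEB1. It was lowest with SNAIL2, where it was 2.53-fold below BRAF-on (log2 ratio -1.34), then with ZEB1 (-0.77) and ZEB2 (-0.71), and within 1.12-fold of BRAF-on with TWIST1 and in BRAF-off. The same gene gave the largest difference of any member with ZEB2.

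The replication fork is represented by 14 genes, of which 10 were at least 2-fold lower with ZEB1, with a median log2 ratio of -1.20. Pola1, the catalytic subunit of the polymerase that starts each new strand, had the largest difference: 1803 in BRAF-off, 1607 in BRAF-on, 1632 with ZEB2, 1120.3 with SNAIL2, 1410.4 with TWIST1 and 369 with ZEB1. On the ZEB1 array it was 4.36-fold below BRAF-on (-2.12), whereas the other 5 arrays spanned 1120.3 to 1803. Prim1, the primase that lays the RNA primer for it, read 3548 in BRAF-off, 3408 in BRAF-on, 2872 with ZEB2, 2299 with SNAIL2, 2604 with TWIST1 and 1274 with ZEB1. Both genes were below BRAF-on with SNAIL2 as well, at -0.52 and -0.57. Pole, the leading strand polymerase, went the other way there: it read 1967 in BRAF-off, 1785 in BRAF-on, 1811 with ZEB2, 2883 with SNAIL2, 1454 with TWIST1 and 729 with ZEB1, a log2 ratio of 0.69 with SNAIL2 and -1.29 with ZEB1.

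Among the genes that turn the loaded ring into a helicase, Mcm10 read 1219 in BRAF-off, 1130.4 in BRAF-on, 1132 with ZEB2, 1598 with SNAIL2, 808 with TWIST1 and 420.3 with ZEB1. Cdc45 read 1188 in BRAF-off, 1254 in BRAF-on, 1135 with ZEB2, 1313 with SNAIL2, 1053 with TWIST1 and 582 with ZEB1. Both were more than 2-fold lower with ZEB1 and above BRAF-on with SNAIL2 (for Cdc45 by 0.07, which went below 0 with the arrays centred). The GINS subunits were low with SNAIL2: Gins1 read 1289 in BRAF-off, 1319 in BRAF-on, 1228 with ZEB2, 774 with SNAIL2, 1115 with TWIST1 and 526 with ZEB1, and Gins2 read 1126 in BRAF-off, 1222 in BRAF-on, 879 with ZEB2, 695 with SNAIL2, 1041 with TWIST1 and 766 with ZEB1. Their log2 ratios with SNAIL2 were -0.77 and -0.81. Gins2 was lower with SNAIL2 than with ZEB1, whereas Gins1 was lowest with ZEB1 (-1.33).

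The clamp and its loader had a smaller median difference with ZEB1 than the licensing genes. Pcna, the sliding clamp, read 16364 in BRAF-off, 16447 in BRAF-on, 16089.8 with ZEB2, 13954 with SNAIL2, 14852 with TWIST1 and 10996 with ZEB1. Its ZEB1 signal was the lowest and gave a log2 ratio of -0.58. Of the loader subunits, Rfc3 read 1861 in BRAF-off, 1814 in BRAF-on, 1353 with ZEB2, 1234 with SNAIL2, 1748 with TWIST1 and 1278 with ZEB1, nearly equal with SNAIL2 and ZEB1. Rfc4 read 2886 in BRAF-off, 2716 in BRAF-on, 2511 with ZEB2, 2369 with SNAIL2, 2232 with TWIST1 and 1197 with ZEB1, and Rfc5 read 2292 in BRAF-off, 2134 in BRAF-on, 2159.9 with ZEB2, 2380.4 with SNAIL2, 1537 with TWIST1 and 1024 with ZEB1. The median ZEB1 log2 ratio of the clamp and the 3 loader subunits was -0.82, with 2 of the 4 at least 2-fold lower, Rfc4 (-1.18) and Rfc5 (-1.06). Rpa2, a subunit of the complex that coats single-stranded DNA, read 1631 in BRAF-off, 1469 in BRAF-on, 1494 with ZEB2, 1544 with SNAIL2, 1326 with TWIST1 and 802 with ZEB1 (-0.87 with ZEB1). Fen1 and Lig1, which trim and seal the fragments of the lagging strand, were 2.45-fold and 2.32-fold lower with ZEB1. Fen1 read 3246 in BRAF-off, 2546 in BRAF-on, 3187 with ZEB2, 3398 with SNAIL2, 2246 with TWIST1 and 1041 with ZEB1, and Lig1 read 3477 in BRAF-off, 3539 in BRAF-on, 3310.2 with ZEB2, 4694 with SNAIL2, 3049 with TWIST1 and 1526 with ZEB1. Fen1 was 1.27-fold lower in BRAF-on than in BRAF-off, and its signals with ZEB2 and with SNAIL2 were 98.2% and 105% of that in BRAF-off. Another Fen1 probe set differed less, with log2 ratios of -0.14 after BRAF activation, 0.07 with ZEB2 and 0.05 with SNAIL2. The one used gave -0.35, 0.32 and 0.42.

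Nucleotide supply had the lowest median of the 5 roles with ZEB1, -1.39, with 4 of 5 genes at least 2-fold lower. This rank and that count depend on the probe set of Tyms. The one used gave -1.39, with its ZEB1 signal raised to the floor, and another gave -0.83. With the latter, the middle value of the 5 genes is that of Rrm1, -1.13. The medians were -1.20 for licensing and for fork genes, -1.17 for entry regulators and -1.16 for chromatin genes. Nucleotide supply would then have the smallest median difference of the 5 roles. Rrm2, the small subunit of ribonucleotide reductase, which makes deoxynucleotides and is made anew in each S phase, read 11417 in BRAF-off, 10923 in BRAF-on, 9592 with ZEB2, 10233 with SNAIL2, 8177 with TWIST1 and 3329 with ZEB1. The ZEB1 signal was 3.28-fold below BRAF-on (-1.71). Its partner Rrm1 read 6583 in BRAF-off, 6005 in BRAF-on, 6543 with ZEB2, 7010.4 with SNAIL2, 4875 with TWIST1 and 2749.8 with ZEB1, 2.18-fold lower with ZEB1. Thymidine kinase, Tk1, read 4198 in BRAF-off, 3984 in BRAF-on, 3759 with ZEB2, 4089 with SNAIL2, 3182 with TWIST1 and 1522 with ZEB1, and was 2.62-fold lower. Tyms, thymidylate synthase, was dim throughout: 178 in BRAF-off, 167 in BRAF-on, 175 with ZEB2, 199 with SNAIL2, 127 with TWIST1 and 48.7 with ZEB1. Its ZEB1 signal was under the floor, so the difference was at least 2.63-fold. Dut, which removes dUTP before it can enter DNA, read 4688 in BRAF-off, 4509 in BRAF-on, 3927 with ZEB2, 3584 with SNAIL2, 4191 with TWIST1 and 2518 with ZEB1 and was 1.79-fold lower with ZEB1. With TWIST1 all 5 genes were lower, by log2 ratios from -0.42 for Rrm2 to -0.11 for Dut, and with SNAIL2 they ran from -0.33 for Dut to 0.25 for Tyms.

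The 4 regulators of S phase entry had the lowest median of the 5 roles with TWIST1 and were spread widely with SNAIL2. E2f1, an activating E2F, read 742 in BRAF-off, 658 in BRAF-on, 729.9 with ZEB2, 1222 with SNAIL2, 328 with TWIST1 and 306 with ZEB1. E2f2, its close relative, read 308 in BRAF-off, 314 in BRAF-on, 302 with ZEB2, 584 with SNAIL2, 132 with TWIST1 and 138 with ZEB1. On the probe sets used for both genes, the TWIST1 and ZEB1 arrays were low and nearly equal, and the SNAIL2 array was the highest. The log2 ratios to BRAF-on were -1.01 and -1.25 with TWIST1, -1.10 and -1.19 with ZEB1, and 0.89 and 0.90 with SNAIL2. Another E2f1 probe set gave -1.09 with TWIST1, -0.38 with ZEB1 and 0.35 with SNAIL2. Another of E2f2 gave -0.75, -1.24 and 0.61, where the ZEB1 value is a bound because its signal was under the floor. The sizes of these ratios thus depend on the probe set. Cyclin E, which activates Cdk2 at the start of S phase, is made by a pair of genes that differed. Ccne1 read 880.1 in BRAF-off, 1134 in BRAF-on, 1077 with ZEB2, 941 with SNAIL2, 589.7 with TWIST1 and 513 with ZEB1; it was the member with the largest gain after BRAF activation, 0.37, which is 1.29-fold, but its other probe set went the opposite way, from 1051 to 968 (-0.12). Ccne2 read 1243 in BRAF-off, 1058 in BRAF-on, 926 with ZEB2, 598 with SNAIL2, 668 with TWIST1 and 240.2 with ZEB1. It had the largest ZEB1 difference of all 36 genes, 4.40-fold (-2.14), and was also 1.77-fold lower with SNAIL2. The median of the 4 regulators was -0.98 with TWIST1, against -0.32 for licensing genes, -0.24 for fork genes, -0.32 for nucleotide genes and -0.36 for chromatin genes.

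Set directly against each other, the ZEB1 array was below the TWIST1 array for 35 of the 36 genes, with a median log2 ratio of -0.88. The gap was wide for Pola1 (-1.94), Cdc6 (-1.58), Ccne2 (-1.48), Mcm2 (-1.33), Rrm2 (-1.30) and Uhrf1 (-1.14). On the probe sets used it was narrow for the other regulators of entry: E2f1 read 328 with TWIST1 and 306 with ZEB1 (-0.10), E2f2 132 and 138 (0.06), and Ccne1 589.7 and 513 (-0.20). Their other probe sets did not bear out a narrow gap. For E2f1 another read 178 with TWIST1 and 291 with ZEB1 (0.71), so that TWIST1 was the lower array. For Ccne1 another read 623 and 371, 1.68-fold lower with ZEB1. For E2f2 another read 89.4 with TWIST1 and was under the floor with ZEB1, at least 1.40-fold lower. How ZEB1 and TWIST1 compare on these 3 genes thus depends on the probe set.

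The chromatin role is held by 3 measured genes, which handle chromatin or histone mRNA as DNA is copied. Uhrf1, which brings maintenance DNA methylation to new strands, read 5121 in BRAF-off, 4313 in BRAF-on, 4764 with ZEB2, 5820.1 with SNAIL2, 3363 with TWIST1 and 1523 with ZEB1, 2.83-fold lower with ZEB1. Chaf1b, a subunit of the chaperone that places histones on new DNA, read 1136 in BRAF-off, 834 in BRAF-on, 1107 with ZEB2, 2022 with SNAIL2, 619 with TWIST1 and 374 with ZEB1. It was the highest with SNAIL2, 2.43-fold above BRAF-on (1.28), and it was also the member with the largest drop after BRAF activation, -0.45. Against BRAF-off its SNAIL2 signal was higher by 0.83 on the log2 scale. Slbp, which binds the histone mRNA stem-loop and is controlled mostly as a protein, read 6001 in BRAF-off, 6100.1 in BRAF-on, 5188 with ZEB2, 4366 with SNAIL2, 5477 with TWIST1 and 4238 with ZEB1, a ZEB1 log2 ratio of -0.53.

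Members with and without E2F letters in the promoter window had close medians with ZEB1 and TWIST1. With ZEB1 the median log2 ratio was -1.20 for the 12 with the letters and -1.14 for the 19 without. With TWIST1 the medians were -0.29 and -0.32, and with SNAIL2 0.24 and 0.07. In both sets the ZEB1 ratios overlapped, from -2.12 (Pola1) to -0.50 (Rfc3) with the letters and from -1.88 (Mcm2) to -0.53 (Slbp) without.

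Other genes of replication were lower with ZEB1 too, though by less. Of 39 further genes of the replication machinery, 15 were at least 2-fold lower and 1 higher, against 3.93% and 4.49% of all genes, and the median was -0.67. The largest differences were in Atad5, which unloads the clamp (-1.96), the nuclease Dna2 (-1.64), the checkpoint adaptor Clspn (-1.59) and Mtbp, a factor of origin firing (-1.46). Pold4, the smallest subunit of polymerase delta, went against them. Its signal was 684 in BRAF-off, 1594 in BRAF-on, 969 with ZEB2, 774 with SNAIL2, 1809.6 with TWIST1 and 4528 with ZEB1. It was the only gene of these lists past 2-fold after BRAF activation, at 1.22, and it was higher again with ZEB1 (1.51) and lower with SNAIL2 (-1.04). With SNAIL2, 4 of the 39 were at least 2-fold lower and 0 higher, against 6.42% of all genes lower (8.18% with the arrays centred) and 5.61% higher, counts near that background: Rpa3 (-1.26), Rnaseh2b (-1.25), Pold4 and Atad5 (-1.02).

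Of 20 other genes of nucleotide supply, 6 were at least 2-fold lower with ZEB1 and the median was -0.73. They included Dctd (-1.39), Ctps (-1.33), which makes CTP, and Dck (-1.30), which salvages deoxynucleosides. Of 16 other genes of S phase chromatin, 8 were at least 2-fold lower and the median was -1.01, led by the remodeller Hells (-2.09) and Atad2 (-2.05). Of the 28 genes of RB and E2F control, 9 were at least 2-fold lower, with a median of -0.57. Among these were Fbxo5, the inhibitor of the anaphase-promoting complex (-1.61), the repressive factors E2f7 (-1.58) and E2f8 (-1.57), Foxm1 (-1.44) and the phosphatase Cdc25a (-1.28). In that list SNAIL2 had 2 genes at least 2-fold higher, Cdk2 (1.30) and Rbl2 (1.01), against 5.61% of all genes. TWIST1 had 1 lower, Myc (-1.13), against 2.02%. Both counts are near the background. In these 4 lists together, 0 genes passed 2-fold with ZEB2, against 1.76% of all genes higher and 0.583% lower, which is also near the background.

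**Figure D4:**
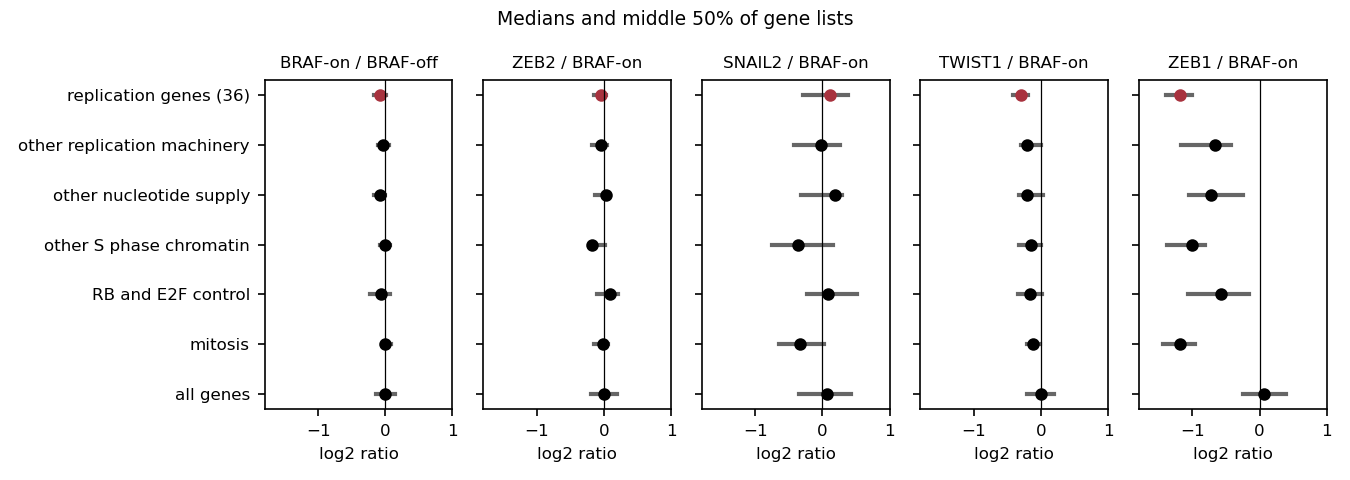
Median log2 ratio (point) and middle 50% (bar) of the 36 replication genes, 5 related gene lists and all genes, in each of the 5 comparisons. With ZEB1 the replication genes and the mitosis genes both have a median of -1.18, while with SNAIL2 the medians are 0.11 (-0.0062 with the arrays centred) and -0.33.

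Mitosis genes and replication genes had the same median with ZEB1 and medians of opposite sign with SNAIL2, where that of the replication genes was -0.0062 with the arrays centred. With ZEB1, 23 of 32 mitosis genes passed 2-fold on the low side and their median log2 ratio, -1.18, equalled that of the replication genes to 2 decimals. With SNAIL2 the mitosis median was -0.33, 23 of 32 were below 0 and 4 were at least 2-fold lower, against 6.42% of all genes, whereas the replication median was 0.11. Those 4 were Cenpe, a kinetochore motor (-3.34), Cenpf (-3.27), Mki67, which coats mitotic chromosomes (-1.77), and Hmmr (-1.19). Mki67 is also the usual marker of dividing cells. Its signals were 7677 in BRAF-off, 7199 in BRAF-on, 7911 with ZEB2, 2107 with SNAIL2, 5422 with TWIST1 and 1357 with ZEB1. The ZEB1 and SNAIL2 arrays were its 2 lowest, while Mcm2, likewise used as a marker of dividing cells, was the lowest with ZEB1 and the highest with SNAIL2.

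The inhibitors of cyclin-dependent kinases were mixed with ZEB1: of 7, 3 were at least 2-fold higher, against 4.49% of all genes, and 0 lower. Cdkn1a (p21) read 653 in BRAF-off, 921 in BRAF-on, 806 with ZEB2, 1100.2 with SNAIL2, 598 with TWIST1 and 2287 with ZEB1. Its ZEB1 log2 ratio was 1.31, and its ratio after BRAF activation was 0.50. Cdkn2b (p15) read 724 in BRAF-off, 709 in BRAF-on, 519 with ZEB2, 434 with SNAIL2, 948 with TWIST1 and 1457 with ZEB1, highest with ZEB1 (1.04). Cdkn1c (p57) read 117 in BRAF-off, 72.8 in BRAF-on, 87.4 with ZEB2, 122 with SNAIL2, 208 with TWIST1 and 231 with ZEB1. It was at least 2-fold above BRAF-on both with ZEB1 (1.67) and with TWIST1 (1.52). Its BRAF-on signal was its lowest and lay just above the floor of 63.7. Against BRAF-off, the ZEB1 and TWIST1 signals both fell short of 2-fold, so its place among the 3 depends on the reference array. Cdkn2a, which encodes p16 and ARF, was 1.46-fold higher with ZEB1, from 354 to 515. Its ratios with the other 3 factors were all below 0, the lowest with SNAIL2 (-0.73). Cdkn1b (p27), Cdkn2c (p18) and Cdkn2d (p19) had ZEB1 log2 ratios of -0.04, -0.30 and -0.31.

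Markers of other cell types were read on the same arrays. Macrophage markers were above the floor for 3 of 9 on every array, with a summed signal from 612 (BRAF-on) to 1218 (ZEB1), and Ptprc, Adgre1, Cd14, Itgam, Tyrobp and Aif1 were under it everywhere. Fibroblast markers were above the floor for 6 to 9 of 10, with a summed signal from 8929 in BRAF-on to 13009.8 with ZEB1 and 21655 with TWIST1. Lum was under the floor on all 6 arrays and Thy1 on all but TWIST1. Keratinocyte markers were above it for 1 to 3 of 8 and endothelial markers for 0 to 3 of 7. The summed melanocyte markers were 70262 in BRAF-on, 27385 with ZEB1 and 2431 with TWIST1, and their part in the replication values was not tested.

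Several probe sets measured most members, and they bear on how far each value can be read. For 28 of the 36 genes there were 43 other probe sets, of which 33 reached the floor in the comparisons. With ZEB1 all 33 were below 0, 19 of them at least 2-fold, with a median of -1.14. Of the 27 genes at least 2-fold lower with ZEB1, 19 had another probe set at the floor, and for 8 at least 1 of these fell short of 2-fold: Mcm3, Mcm5, Mcm7, Mcm10, Cdc45, Gins1, Tyms and E2f1 (-0.38 for E2f1). For Mcm5, Mcm10 and Gins1 the ZEB1 signal of that probe set was under the floor, so its ratio is a bound. For Mcm10 and Gins1 it was above the floor in BRAF-on only, so its ratio was the same with every factor (-0.11 and -0.62). Its sign there does not tell the factors apart. With TWIST1 30 of 33 had the sign of the probe set used, with SNAIL2 24, with ZEB2 19 and after BRAF activation 18. The other probe set of Orc1 read 54.1 in BRAF-off, under the floor, and 140.0 in BRAF-on, the opposite direction to the one used. For Slbp another probe set gave a log2 ratio of -1.04 with TWIST1 and 0.68 with SNAIL2, against -0.16 and -0.48 for the one used. Another probe set of Dut gave -1.01 with TWIST1 and 0.57 with SNAIL2, against -0.11 and -0.33. By the rule the one with the higher mean signal was used, and the values of Slbp and Dut with TWIST1 and SNAIL2, like those of Ccne1 after BRAF activation, depend on the probe set. The probe sets used for Mcm5, Fen1, Rrm2, Ccne1, Mcm3, Mcm7 and Gins2 are of a design that can match more than 1 transcript. So are those used for Mcm10, Cdc6, Cdt1, Rfc3, Pole, E2f1 and Dut.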

How the data were processed

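RNA of 6 melan-a cultures was copied with a 3′ IVT kit and hybridised to Affymetrix mouse arrays in 1 colour, a single array for each group, as the labels' protocols state. The values are linear signal intensity values deposited by the authors, who used MAS5 in version 1.1 of Affymetrix Expression Console according to the submitters' processing notes. A check of the values gave a mean of 500 on each array once the top and bottom 2% were left out. Detection calls were not used here, and the number of arrays limits the precision.

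Of 45101 probe sets, 64 were controls, 34945 had 1 gene symbol in the platform annotation and 34741 of those were in a RefSeq table of GRCm38.p6, giving 18193 genes. Where a gene had several probe sets, the one brightest on average (log2, 6 arrays) stood for it. The floor was the median of all values, 63.7, and lower values were raised to it. Genes under the floor on both arrays of a comparison were left out of it, and the rest were counted at 2-fold with no test and no p-value. A fold with an array under the floor is a lower bound.

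All measured members are named. Of other lists, up to 5 genes per comparison past 2-fold were named by size (4 for mitosis), and all 7 CDK inhibitors. Members and lists were chosen with earlier results of these data known. The alternatives were quantile normalization, centring each array, other floors, a pseudocount, other probe set rules, other fold sizes and BRAF-off as the reference. The counting was run on simulated data, with shifts past 2-fold put into genes well above the floor and small noise added. This checks the counting code only and cannot show how cultures or arrays vary. Python 3.11.15, numpy 2.4.6, pandas 2.3.3 and matplotlib 3.10.9 were used.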

Additional observations from a re-analysis of the deposited data

Results flagged for a closer look

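The poly-A control transcripts, which are added to the RNA before amplification and enter no comparison above, read higher on the SNAIL2 array than on the BRAF-on array. The median ratio was 2.55 over 24 probe sets, all 24 of them higher. On the other arrays the ratio to BRAF-on was 1.20 for BRAF-off, 1.35 for ZEB2, 1.42 for ZEB1 and 0.88 for TWIST1. The SNAIL2 array was also the one on which the replication genes spread most widely, from -1.34 for Orc6 to 1.28 for Chaf1b on the log2 scale. All genes spread most widely there too, with lower and upper quartiles of -0.35 and 0.43. Those of the replication genes were narrower, -0.28 and 0.38. The part of the controls in these spreads was not tested.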

How the results depend on the processing

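With 1 array per group no alternative can measure the spread between cultures, and no paired analysis was possible because each group holds a single array. Under the 11 alternatives the 36 replication genes stayed below the reference array with ZEB1 wherever they were measured. This includes all 27 counted at 2-fold. In the settings that keep 2-fold, the count ran from 21 to 28, against 2.92% to 11.2% of all genes. Of the 27, 18 stayed at least 2-fold lower in each of these settings in which they were measured. Not every gene was measured in each: Mcm7, Cdc6, Pole and Fen1 had no probe set once those that match several transcripts were left out. At 3-fold the ZEB1 count was 5, against 0.732% of all genes, and with the floor as a pseudocount the ZEB1 median was -1.05. The TWIST1 count of 2 was 1 after quantile normalization, against 1.77% of all genes, and 4 at 1.5-fold (6.28%). It was 0 with the floor at the 75th percentile (0.656%), with a pseudocount (1.46%) or at 3-fold (0.715%). With the median of all probe sets it was 3 (2.33%), with 34 of 35 members below 0. Without probe sets that match several transcripts it was also 3 (2.08%), with 31 of 32 below 0. The TWIST1 median was -0.43 against BRAF-off. Centring turned the SNAIL2 median to -0.0062 and the BRAF activation median to 0.036, and moved 5 members across 0 with SNAIL2, 12 after BRAF activation and 8 with ZEB2. With SNAIL2, members lower were 3 with the median of all probe sets, 2 without probe sets that match several transcripts, 4 at 1.5-fold, 0 at 3-fold and 2 against BRAF-off; members higher were 0 with the median of all probe sets, at 3-fold and against BRAF-off, and 5 at 1.5-fold. With the median of all probe sets 1 member was higher after BRAF activation, against 1.39% of all genes. In that setting 1 was lower with ZEB2 (0.969%), and 1.5-fold also gave 1 lower with ZEB2 (3.98%). Over single members, no counted value changed sign, 48 dropped under the size that counts in that setting and 27 passed it, of 1905 compared. The causes of these shifts were not tested. Dim genes are the least certain: 50% of all values lay under the floor.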
